A study of Mus musculus with 34 samples.

Results

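Human chromosome 21 corresponds to stretches of mouse chromosomes 16, 17 and 10, and in Dp16 mice only the chromosome 16 stretch is present in an additional copy. The genes described here are 38 mouse orthologs of human chromosome 21 genes that lie on chromosomes 10 and 17, outside that segment, and were chosen by gene name from the deposited tables of 55385 genes. Of the 38, 28 lie on chromosome 10 between positions 76207222 and 78464975 (2.26 Mb) and 10 on chromosome 17 between positions 31057675 and 32062865 (1.01 Mb), on mouse build GRCm38. In Dp16 they remain at 2 copies, so they serve as a copy-number control for the segment's own genes, which are at 3 copies, and for effects of the segment on genes elsewhere in the genome.

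Many of these genes are studied in Down syndrome, in which all of human chromosome 21, and so the human counterparts of all 38, are triplicated. S100b encodes a calcium-binding protein made mainly by astrocytes, Itgb2 the beta chain shared by the leukocyte integrins and made in brain by microglia, Col6a1 and Col6a2 chains of collagen VI, and Adarb1 an enzyme that edits adenosine in glutamate receptor and other transcripts. In mice of the Dp16 line these genes keep their normal dose, which is one of the limits of the line as a model.

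Hippocampal poly(A) RNA was sequenced from 34 mice aged 6 months. The sham groups, which received 0.5% methylcellulose by daily gavage for a month, comprised 5 wild-type C57BL/6J mice (WT), 3 Dp16 mice, 4 5xFAD mice and 3 5xFAD-Dp16 mice. The tofacitinib groups, which received 15 mg/kg of this inhibitor of Janus kinases by the same route, comprised 5 WT mice, 5 Dp16 mice, 5 5xFAD mice and 4 5xFAD-Dp16 mice. One tofacitinib-treated 5xFAD mouse and a sham-treated 5xFAD-Dp16 mouse of the stated design were not analysed here. There were 16 females and 18 males, and the only male among the sham 5xFAD-Dp16 animals was library 4. 5xFAD mice carry transgenes under the Thy1 promoter, which drives them in neurons, and they develop amyloid plaques. Each 5xFAD-Dp16 animal carries both the transgenes and the segment.

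Library totals lay between 14.9 and 21.1 M counts (median 17.8 M). The labels' separation by segment was visible in the segment gene Dyrk1a, which lay between 109 and 141 CPM (TMM-scaled read counts relative to the library total) in the 15 animals with the segment and between 77.5 and 97.0 CPM in the 19 without. Thy1, a check on the transgenes, lay between 782 and 934 CPM in the 18 animals without them and between 967 and 2875 CPM in the 16 with them, the lowest being the library labelled 5xFAD tofacitinib 2. That library, WT tofacitinib 3 and 5xFAD-Dp16 sham 4 were low in hippocampal markers: the mean log2 CPM of 7 CA1 markers was 4.34, 5.02 and 3.92 against 5.65 to 6.69 in the other 31 libraries. Thalamus and habenula markers (10 genes) were at 6.91 in 5xFAD tofacitinib 2, 5.53 in 5xFAD-Dp16 sham 4 and 5.19 in 5xFAD-Dp16 tofacitinib 1, against 3.24 to 4.17 in the 30 libraries other than these and WT tofacitinib 3. Striatum markers (10 genes) were at 6.00 in WT tofacitinib 3, 6.79 in 5xFAD tofacitinib 2, 3.90 in 5xFAD-Dp16 sham 4 and 4.73 in 5xFAD-Dp16 tofacitinib 1, against 2.67 to 3.29 in those 30. Effects of Col6a1, Col6a2, S100b, Lrrc3, Adarb1 and Slc37a1 are given with and without 1 or all 3 of the libraries low in hippocampal markers. For the other members this was not done in every case. In bulk tissue, fewer cells of a type and less RNA per cell cannot be told apart.

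The members spanned a wide range of expression. Per gene length, in the deposited RPKM (read counts scaled by gene length and library total), the median over the 34 libraries ran from 0.628 for Slc37a1, a sugar-phosphate exchanger, to 186 for Rrp1, a nucleolar ribosome biogenesis factor. Rrp1 and S100b (121 RPKM) were above 100 RPKM, 14 members lay between 10 and 100, 17 between 1 and 10, and 4 below 1 RPKM (Slc37a1, Col6a2, Col18a1 and Col6a1). The next highest after S100b were Pfkl, the liver-type phosphofructokinase of glycolysis, at 57.4 RPKM and Agpat3, an acyltransferase of phospholipid synthesis, at 41.7 RPKM. Ftcd, an enzyme of histidine breakdown in liver, had a median of 0 and a maximum of 0.144 RPKM, did not pass the filter on low counts and is the 1 member that was not tested. In the plot of levels, the ranges of neighbouring members between Agpat3 and Adarb1 overlap throughout.

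**Figure D1:**
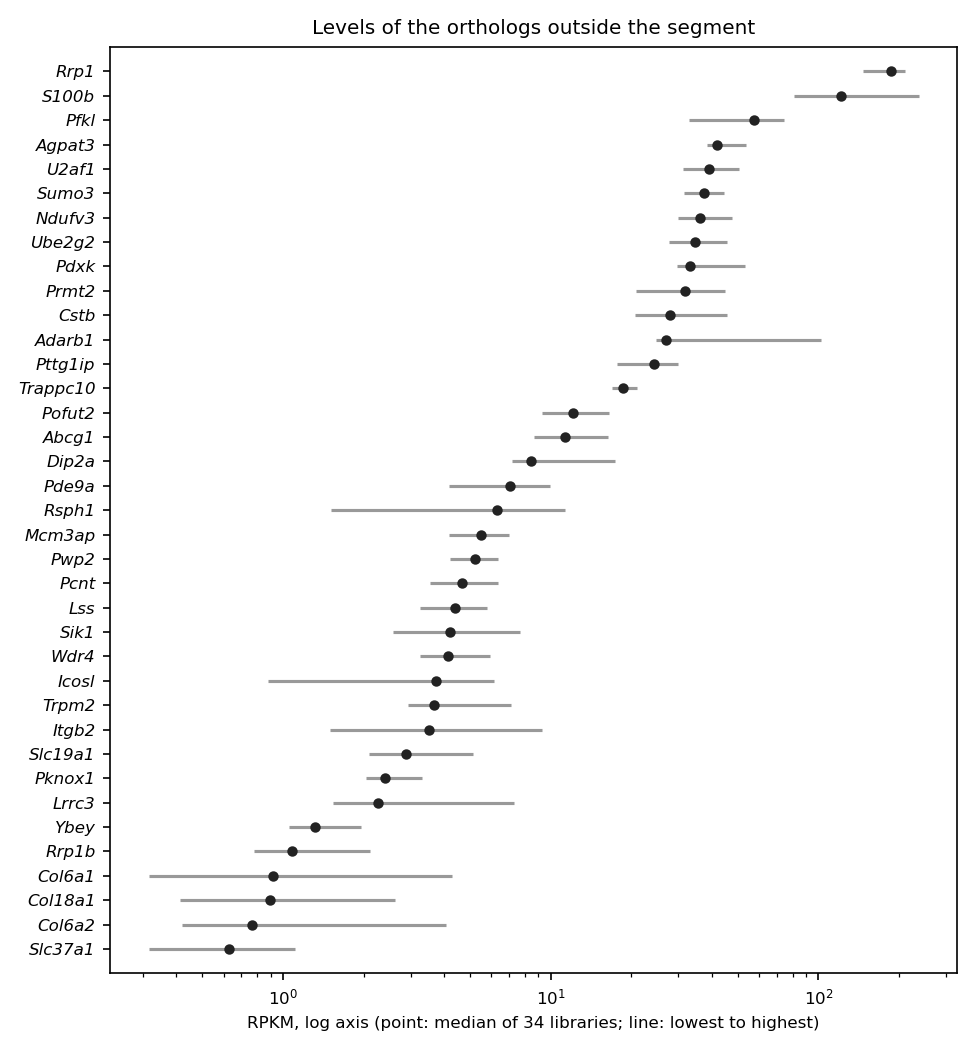
Level of the 37 tested members in RPKM on a log axis: points are medians over 34 libraries and lines run from the lowest to the highest library. Medians run from 0.628 (Slc37a1) to 186 (Rrp1); Adarb1, Icosl, Rsph1 and the collagen genes have long lines, and Trappc10 and Rrp1 short ones.

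Animals with and without the segment were compared first, to ask whether genes at 2 copies moved with the extra segment. No member passed the threshold (0 of 37 tested, against 1.38% of all 17518 genes, 242 genes), by the mean over 4 comparisons of animals with against animals without the segment (edgeR quasi-likelihood F-test, Benjamini-Hochberg adjusted p under 0.05). With this test 8 members had an unadjusted p under 0.05, and DESeq2 placed 2 members, S100b and Sumo3, past the threshold. The members' median log2 fold change was 0.00 (quartiles -0.07 and 0.09), with 19 above and 18 below 0, and the median over all genes was -0.00. The genes of the segment itself had a median of 0.56 in the same fit, and 71 of the 107 tested passed the threshold, all higher. These 71 are among the 242 genes above, so the share outside the segment was lower than 1.38%. The shares of all genes given below for single comparisons by segment also count segment genes. For 32 of the 37 members the 95% interval of the change lay wholly below 1.5-fold (0.58 on the log2 scale), the ratio of 3 copies to 2. The interval of 5 members included 1.5-fold (Col6a2, Col6a1, Rsph1, Col18a1 and Icosl), and no member's interval lay above it. Of the segment genes, 10 had intervals below 1.5-fold, 88 included it and 9 were above.

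**Figure D2:**
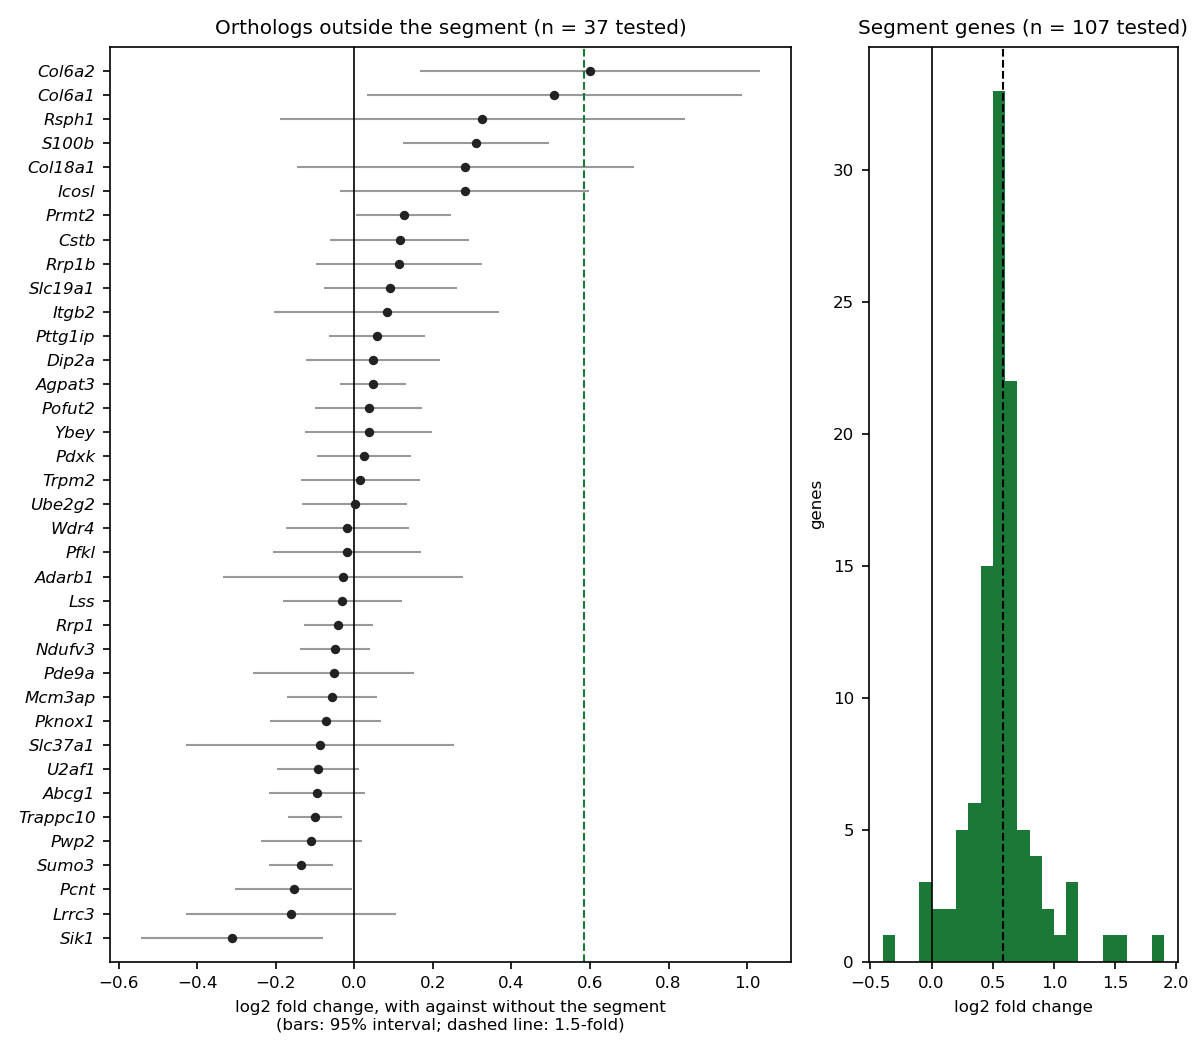
Left, log2 fold change of each of the 37 tested members with against without the segment (mean of 4 comparisons), with its 95% interval; right, the number of segment genes (107 tested) by log2 fold change in the same fit, with the dashed line at 1.5-fold in both. The members lie around 0 (median 0.00), and the segment genes around 0.56.

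In the sham animals alone, Dp16 against WT, 0 of 37 members passed (0.308% of all genes did; edgeR, 3 members with an unadjusted p under 0.05, DESeq2 also 0), the median was -0.04 and 28 intervals lay below 1.5-fold. The comparisons within an arm use the same animals as the means over 4 comparisons, so they are not separate evidence. With tofacitinib, Dp16 against WT also gave 0 of 37 (0.268% of all genes; edgeR, 1 with an unadjusted p under 0.05). Among transgenic animals, 5xFAD-Dp16 against 5xFAD gave 0 of 37 with sham (0.268% of all genes; edgeR, 7 unadjusted, DESeq2 0) and 0 of 37 with tofacitinib (0.217% of all genes; edgeR, 1 unadjusted). Without sham 5xFAD-Dp16 library 2, Col6a2 (adjusted p = 0.0323) and S100b (adjusted p = 0.0441) passed in the sham comparison of transgenic animals, in edgeR. That fit still holds sham 5xFAD-Dp16 library 4, which was low in hippocampal markers and the highest of all libraries in both genes. The 7 members with an unadjusted p under 0.05 are also from a fit with library 4.

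Col6a2 and Col6a1 of the extracellular matrix group had the 2 largest segment effects with all libraries in the fit, and both became smaller without 1 library. Col6a1 and Col6a2 encode 2 of the chains that assemble into collagen VI, a filament-forming collagen around cells and vessels, and both lie on the minus strand of chromosome 10. Col6a1 (positions 76708792 to 76726168) and Col6a2 (76595762 to 76623630) were high in the same library. The bases before their starts, and before that of S100b, are shown because the collagen genes had the 2 largest segment effects and S100b the smallest adjusted p among the members that were higher with the segment; they are taken from RefSeq promoters on GRCm38.p6, which held 29 of the 38 members. Each is read 5′ to 3′ on the gene's strand, at chr10:76726169-76726294 (minus strand, 126 bases), chr10:76623631-76623880 (minus strand, 250 bases) and chr10:76253586-76253835 (plus strand, 250 bases). Capitals mark matches to the GC box, spelled GGGCGG, to the TATA box, spelled TATAAA, and to the CCAAT box, spelled CCAAT, on either strand, so that a match on the other strand appears as its reverse complement:
Col6a1: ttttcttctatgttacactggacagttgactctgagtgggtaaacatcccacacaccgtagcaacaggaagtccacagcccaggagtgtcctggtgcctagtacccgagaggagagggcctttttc
Col6a2: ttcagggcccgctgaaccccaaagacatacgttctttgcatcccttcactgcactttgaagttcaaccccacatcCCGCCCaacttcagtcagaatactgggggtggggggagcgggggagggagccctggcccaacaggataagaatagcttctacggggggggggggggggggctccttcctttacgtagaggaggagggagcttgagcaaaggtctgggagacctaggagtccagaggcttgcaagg
S100b: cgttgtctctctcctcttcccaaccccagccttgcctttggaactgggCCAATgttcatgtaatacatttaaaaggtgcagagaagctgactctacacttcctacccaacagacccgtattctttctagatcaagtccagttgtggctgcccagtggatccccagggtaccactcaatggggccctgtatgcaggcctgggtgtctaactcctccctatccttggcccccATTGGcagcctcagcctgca

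The stretch before Col6a2 holds 1 GC box and that before S100b 2 CCAAT boxes. The 250 bases before the RefSeq start of Col6a1 hold none of the 3 motifs. That start lies 124 bases inside the gene as positioned above, so only the 126 bases outside the gene are shown. Over all 32851 promoters of the table, 32.7% hold a GC box, 12.4% a TATA box and 33.8% a CCAAT box in the same 250 bases.

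Col6a1 was at 3.74, 6.18, 3.36, 2.68 and 3.75 CPM in the WT sham animals and at 5.28, 3.96 and 2.82 CPM in the Dp16 sham animals. With both the transgenes and the segment, sham animals were at 4.03, 3.42 and 16.2 CPM, and 5xFAD sham animals at 2.33, 2.74, 3.63 and 7.41 CPM. The value of 16.2 CPM was that of 5xFAD-Dp16 sham 4, and all groups overlapped. Its segment effect was 0.51 (SE 0.23, adjusted p = 0.345, edgeR), and without that library 0.16.

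Col6a2 was at 4.46, 6.29, 4.84, 4.54 and 3.94 CPM in WT sham animals, at 5.07, 3.66 and 10.9 CPM in Dp16 sham animals and at 5.49, 3.03 and 22.7 CPM in 5xFAD-Dp16 sham animals, the last being library 4 again. The groups overlapped. Its segment effect was 0.60 (SE 0.21, adjusted p = 0.18, edgeR), the largest of the 37 members, and without 5xFAD-Dp16 sham 4 it was 0.25. Col18a1, the precursor chain of endostatin in basement membranes, had a segment effect of 0.28 (SE 0.21, adjusted p = 0.645) and was also highest in that library, at 16.5 CPM. The 10 markers of meningeal and perivascular fibroblasts, cells known to make collagen VI, had a mean log2 CPM of 4.87 in 5xFAD-Dp16 sham 4 and of 2.63 to 4.44 in the 31 libraries that were not low in hippocampal markers; their part in the collagen values was not tested. Those 10 fibroblast markers had a median segment effect of 0.49 with all libraries in the fit, with 0 of 10 past the threshold. Markers of mural cells (9 genes) were at 5.09 in 5xFAD-Dp16 sham 4, against 3.65 to 4.79 in the 31 libraries. Those of endothelium (9 genes) were at 5.63 against 5.07 to 5.50, and the part of either list was not tested.

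Among the signalling genes, S100b (positions 76253853 to 76261159, plus strand) was at 139, 148, 182, 154 and 128 CPM in WT sham animals and at 191, 212 and 212 CPM in Dp16 sham animals, which did not overlap. With tofacitinib, WT animals were at 149, 173, 223, 197 and 169 CPM and Dp16 animals at 265, 166, 185, 179 and 219 CPM, which overlapped. The 5xFAD animals were at 153, 174, 175 and 120 CPM with sham and at 242, 223, 155, 209 and 174 CPM with tofacitinib, and the 5xFAD-Dp16 animals at 209, 153 and 325 CPM with sham and at 241, 182, 216 and 174 CPM with tofacitinib. S100b was higher with the segment on average over the 4 comparisons but did not pass the threshold: the segment effect was 0.31 (SE 0.09, adjusted p = 0.0902, edgeR). Its 95% interval, 0.12 to 0.50, left out both 0 and 1.5-fold. Without 5xFAD-Dp16 sham 4, its highest library, the effect was 0.21 (adjusted p = 0.307), and without 5xFAD-Dp16 sham 2, its lowest segment library, the adjusted p was 0.0246. DESeq2 gave an adjusted p of 0.0439. The gene overlaps Dip2a on the opposite strand over 1731 bases, and the sources used here do not say whether counting used strand. Markers of astrocytes (10 genes) had a median segment effect of 0.04, and markers of oligodendrocytes (9 genes), which can also express S100b, of 0.19 with 1 of 9 past the threshold. The oligodendrocyte markers were at a mean log2 CPM of 8.91 in 5xFAD-Dp16 sham 4 and of 7.28 to 8.15 in the 31 libraries not low in hippocampal markers; their part in the S100b values was not tested.

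Sik1 (chromosome 17, positions 31844250 to 31855804), a kinase that is induced by cyclic AMP and neuronal activity, had the lowest segment effect of the 37 members, -0.31 (SE 0.11, adjusted p = 0.192, edgeR). It was at 25.2, 23.5, 11.8, 17.9 and 23.3 CPM in WT sham animals and at 14.1, 22.3 and 16.6 CPM in Dp16 sham animals, which overlapped. In 5xFAD sham animals it was at 30.3, 21.4, 22.7 and 15.6 CPM. In 5xFAD-Dp16 sham animals it was at 19.9, 12.1 and 12.01 CPM, the last being library 4, which was low in hippocampal markers. With tofacitinib the group means were 18.3 ± 0.906 CPM in WT (SD, n = 5), 19.1 ± 3.24 in Dp16 (n = 5), 22.2 ± 7.45 in 5xFAD (n = 5) and 17.7 ± 1.72 in 5xFAD-Dp16 (n = 4). The 5xFAD mean holds 5xFAD tofacitinib 2, also low in hippocampal markers, which at 33.7 CPM was the highest of all libraries in Sik1. Over the main and 8 alternative fits, among them that without the 3 libraries low in hippocampal markers, the Sik1 effect ran from -0.31 to -0.21. Pde9a, a cyclic GMP phosphodiesterase, had a segment effect of -0.05 (SE 0.10).

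Among the 7 genes of protein turnover and trafficking, the segment effects lay between -0.14 and 0.12. Sumo3 (positions 77606097 to 77618331), a small ubiquitin-like modifier, was at 104, 122, 138, 119 and 119 CPM in WT sham animals and at 99.96, 109 and 110 CPM in Dp16 sham animals. In transgenic sham animals it was at 115, 113, 121 and 131 CPM without and at 110, 112 and 104 CPM with the segment. The 15 animals with the segment lay between 99.96 and 129.5 CPM (median 110) and the 19 without between 104 and 138 CPM (median 123), so the ranges overlapped. The segment effect was small and did not pass, at -0.14 (SE 0.04, adjusted p = 0.0891, edgeR), and DESeq2 gave an adjusted p of 0.0423. Without WT sham 1, its lowest library outside the segment animals, the adjusted p was 0.0456 (edgeR). Of the libraries low in hippocampal markers, 5xFAD tofacitinib 2 was at 133 CPM and 5xFAD-Dp16 sham 4 at 104 CPM. Over the main and 8 alternative fits, among them that without the 3 such libraries, the Sumo3 effect ran from -0.15 to -0.11. Sumo3 and Ube2g2, a ubiquitin-conjugating enzyme of the endoplasmic reticulum, share their positions and strand with the gene model Gm49325, so their counts are uncertain. Trappc10, a subunit of a tethering complex for transport vesicles, lay between 87.4 and 96.8 CPM with the segment and between 85.0 and 107 CPM without; its effect was -0.10 (SE 0.03, adjusted p = 0.157). Cstb, an inhibitor of cysteine proteases, had an effect of 0.12 (SE 0.09).

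**Figure D3:**
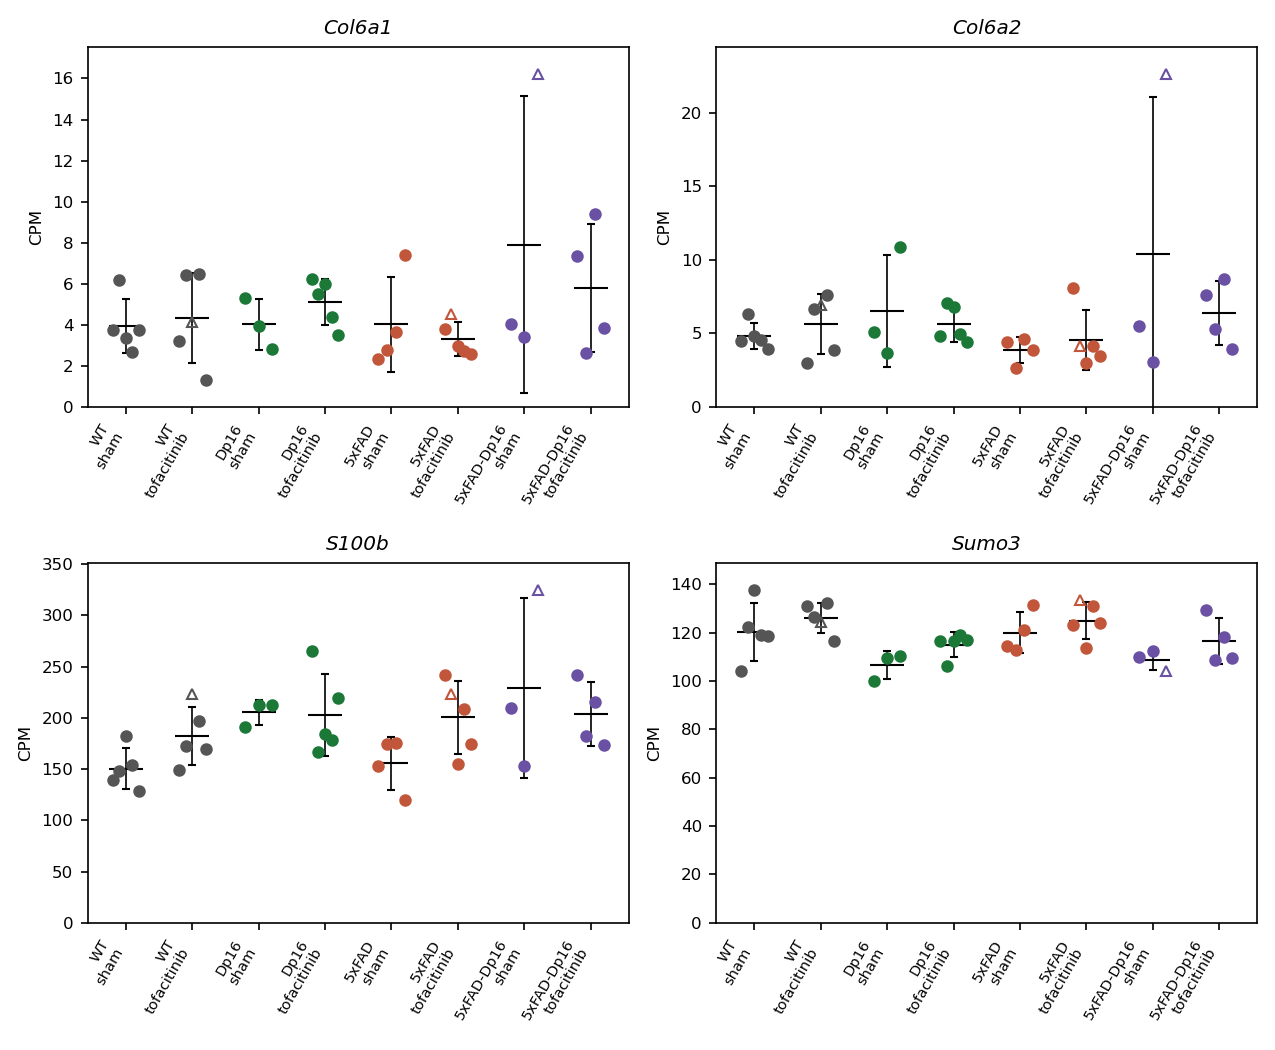
CPM of Col6a1, Col6a2, S100b and Sumo3 in each animal by group; horizontal lines are group means, error bars the SD (the lower bar of Col6a2 in the sham 5xFAD-Dp16 group ends at the axis at 0), and open triangles the 3 libraries low in hippocampal markers. The sham 5xFAD-Dp16 triangle is the highest value for both collagen genes (16.2 and 22.7 CPM) and for S100b (325 CPM).

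The centrosome and cilium genes had segment effects of opposite sign, and neither passed the threshold. Pcnt, a scaffold protein of the centrosome, had a segment effect of -0.15 (SE 0.07, adjusted p = 0.362) and Rsph1, a radial spoke protein of motile cilia, one of 0.33 (SE 0.25, adjusted p = 0.664). Rsph1 ran from 2.13 CPM (WT sham 5) to 9.52 CPM among WT sham animals and from 4.44 to 15.1 CPM (5xFAD sham 4) among 5xFAD sham animals, which overlapped. Ependymal markers (10 genes), which mark the ciliated lining of the ventricles, were also lowest in WT sham 5, at a mean log2 CPM of -1.08, and reached 1.74 in 5xFAD sham 4; their part in the Rsph1 values was not tested. Ependymal markers had a median segment effect of 0.42, with 0 of 10 past the threshold.

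In the remaining groups no member passed the threshold between animals with and without the segment. The 3 lipid and sterol genes lay between -0.10 (Abcg1, a cholesterol exporter) and 0.05 (Agpat3), with Lss, the lanosterol synthase, at -0.03. The 5 tested genes of other metabolism and mitochondria lay between -0.09 (Slc37a1) and 0.09 (Slc19a1, the reduced folate carrier); Pdxk, which makes the active form of vitamin B6, was at 0.02, Pfkl at -0.02 and Ndufv3, a subunit of mitochondrial complex I, at -0.05. The 6 genes of RNA processing and transcription lay between -0.09 (U2af1, a splicing factor that recognises the 3′ splice site) and 0.13 (Prmt2, an arginine methyltransferase). The 4 ribosome biogenesis genes lay between -0.11 (Pwp2) and 0.11 (Rrp1b). Of the immune group, Trpm2, a cation channel opened by ADP-ribose, was at 0.02, Itgb2 at 0.08 and Icosl, the ligand of the T cell co-stimulator ICOS, at 0.28 (SE 0.15, adjusted p = 0.467). Icosl was low in the 3 libraries low in hippocampal markers, and its effect without them is not given here. The Itgb2 mean joins differences of unlike sign. With sham it was 0.63 in Dp16 against WT (SE 0.29, adjusted p = 0.638, edgeR). In 5xFAD-Dp16 against 5xFAD with sham it was -0.21 (SE 0.30, adjusted p = 0.826, edgeR).

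By chromosome, 17 of the 27 tested members on chromosome 10 lay above 0 (median 0.04) and 2 of the 10 on chromosome 17 (median -0.06). The other tested genes of chromosome 10 had a median of -0.01 and those of chromosome 17 of -0.02. Of 19 further chromosome 21 orthologs outside the segment that were listed beside the members, 10 were tested and 1 passed: Cbs, the cystathionine beta-synthase of homocysteine metabolism, which lies between the members Pknox1 and U2af1 on chromosome 17. Cbs was lower with the segment, by -0.66 (SE 0.06, adjusted p = 8.75e-09, edgeR), at 17.7 ± 2.5 CPM in Dp16 sham (SD, n = 3) against 33 ± 2.99 in WT sham (n = 5). The nearest members did not pass: Pknox1, a homeodomain transcription factor 1200 bases away, was at -0.07 (SE 0.07) and U2af1, 9842 bases away, at -0.09 (SE 0.05).

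The transgenes were examined next, by the mean over 4 comparisons of animals with against without them. Itgb2 was the 1 member of 37 that passed (1.59% of all genes did, 278 higher and 1 lower; 5 members had an unadjusted p under 0.05). The members' median was 0.05, with 28 above and 9 below 0, and that of all genes 0.00. For 31 members the interval lay below 1.5-fold, for 5 it included it and for Itgb2 it lay above.

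Itgb2 (chromosome 10, positions 77530252 to 77565708, plus strand) was at 7.2, 8.26, 9.57, 4.43 and 7.01 CPM in WT sham animals and at 20.3, 23.5, 19.8 and 9.95 CPM in 5xFAD sham animals. With tofacitinib it was at 6.86, 6.47, 10.3, 6.81 and 8.52 CPM in WT and at 19.7, 13.9, 29.1, 17.3 and 9.16 CPM in 5xFAD animals. With sham every 5xFAD animal lay above every WT animal. With tofacitinib the groups overlapped, through the 5xFAD animal at 9.16 CPM and WT tofacitinib 3 at 10.3 CPM. The latter is a library low in hippocampal markers, and the other WT tofacitinib animals were at most at 8.52 CPM. Dp16 animals were at 13.1, 11.3 and 9.16 CPM with sham and at 9.56, 7.86, 6.69, 10.5 and 10.5 CPM with tofacitinib, and 5xFAD-Dp16 animals at 14.9, 21.1 and 11.4 CPM with sham and at 12, 15.3, 15.0 and 15.5 CPM with tofacitinib. Among the animals with the segment, the sham groups overlapped and the tofacitinib groups did not. The sham overlap came through 5xFAD-Dp16 sham 4 at 11.4 CPM, a library low in hippocampal markers.

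Itgb2 rose 1.90-fold with the transgenes over the 4 comparisons (log2 fold change 0.92, SE 0.14, adjusted p = 5.02e-05, edgeR). In the comparison of 5xFAD with WT it rose by 1.33 with sham (SE 0.26, adjusted p = 0.00811; 1 of 37 members, against 0.445% of all genes) and by 1.19 with tofacitinib (SE 0.25, adjusted p = 0.0239; 1 of 37, against 0.32%). In 5xFAD-Dp16 against Dp16 the differences were 0.49 with sham (adjusted p = 0.742; 0 of 37 members, 0% of all genes; edgeR, 3 members unadjusted, DESeq2 0) and 0.68 with tofacitinib (adjusted p = 1; 0 of 37, 0.0285% of all genes; edgeR, 1 unadjusted). With sham, 5xFAD-Dp16 against Dp16 (3 animals each) did not call Thy1, the check on the transgenes, either (1.40, adjusted p = 0.0757, edgeR). The interval of the Itgb2 difference there ran from -0.15 to 1.14. The comparison therefore cannot show that Itgb2 was unchanged by the transgenes when the segment was present. Leaving out single libraries, the Itgb2 sham difference ran from 0.22 (without 5xFAD-Dp16 sham 2) to 0.69 and passed in none of the 6 fits. The tofacitinib difference passed without a filter on low counts (0.67, adjusted p = 0.0369, edgeR). The difference between the effects with and without the segment was itself tested and did not pass, at -0.68 (SE 0.27, unadjusted p = 0.0186, adjusted p = 0.942, edgeR). The sham comparison of 5xFAD with WT did not pass without WT sham 4, 5xFAD sham 1 or 5xFAD sham 2 (adjusted p up to 0.0931), nor with the replicate number as a block (1.14, adjusted p = 0.0538) or with the compared groups fitted alone (adjusted p = 0.0951). That with tofacitinib did not pass without any 1 of WT 1, 2, 4 or 5 or 5xFAD 1, 4 or 5 (adjusted p up to 0.218), or with the compared groups alone (adjusted p = 0.39). The effect over all 4 comparisons passed without each of the 34 libraries in turn (0.85 to 0.97).

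Itgb2 is a gene of microglia, and microglial markers moved with the same contrast. Of 12 microglia markers 9 rose with the transgenes (median 0.55, 0 fell), and of 12 genes of plaque-associated microglia 10 rose (median 1.27, 0 fell). Plaque-associated genes had a mean log2 CPM between 2.72 and 3.34 in animals without the transgenes. In the 5xFAD animals it was 5.19, 5.65, 5.35 and 4.00 with sham and 5.03, 4.03, 5.55, 5.36 and 4.27 with tofacitinib, in the order of the Itgb2 values above. The 3 5xFAD animals lowest in Itgb2 were the 3 lowest in this list. In 5xFAD-Dp16 animals the list was at 4.59, 4.82 and 3.47 with sham and 4.81, 4.91, 4.88 and 4.54 with tofacitinib. Whether the rise of Itgb2 goes beyond that of microglial RNA was not tested.

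**Figure D4:**
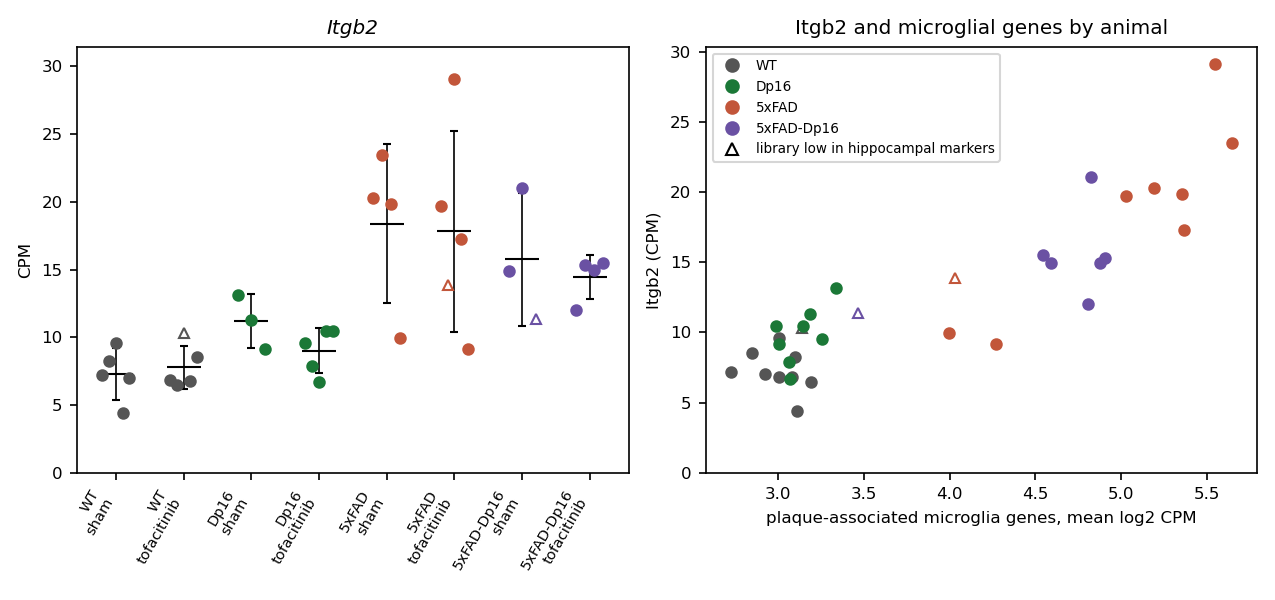
Left, Itgb2 in CPM in each animal by group, with group means and SD; right, Itgb2 against the mean log2 CPM of 12 plaque-associated microglia genes in the same 34 animals, with open triangles for the 3 libraries low in hippocampal markers. Transgenic animals lie between 9.16 and 29.1 CPM and the others between 4.43 and 13.1 CPM; the transgenic animals lowest in Itgb2 are also low on the horizontal axis.

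Lrrc3, a leucine-rich repeat membrane protein, came next and was near the threshold. It was at 9.7, 10.6, 9.13, 9.8 and 9.26 CPM in WT sham animals and at 10.4, 12.6, 11.6 and 9.61 CPM in 5xFAD sham animals. With tofacitinib it was at 7.1, 6.9, 13.9, 8.01 and 7.43 CPM in WT animals and at 10.7, 30.2, 12.8, 13.4 and 8.09 CPM in 5xFAD animals, with the library labelled 5xFAD tofacitinib 2 at 30.2 CPM and WT tofacitinib 3 at 13.9 CPM standing apart from their groups. Dp16 animals were at 7.92, 6.68 and 9.81 CPM with sham and at 8.58, 9.32, 8.17, 9.8 and 7.92 CPM with tofacitinib, and 5xFAD-Dp16 animals at 8.67, 11.4 and 12.7 CPM with sham and at 11.8, 13.2, 12.4 and 9.01 CPM with tofacitinib. The effect of the transgenes was 0.46 (SE 0.13, adjusted p = 0.0662, edgeR), which did not pass. Without the 3 libraries low in hippocampal markers it was 0.37 and passed (SE 0.08, adjusted p = 0.0067), and DESeq2 on all libraries gave an adjusted p of 0.0289. It also passed without WT tofacitinib 3, 5xFAD tofacitinib 1, 5xFAD tofacitinib 6 or 5xFAD-Dp16 sham 1 (lowest adjusted p 0.0146).

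Adarb1 was the member in which the libraries of unlike tissue content stood out most. It lay between 162 and 256 CPM in the 31 other libraries, the 256 CPM being 5xFAD-Dp16 tofacitinib 1, and at 218, 656 and 422 CPM in WT tofacitinib 3, 5xFAD tofacitinib 2 and 5xFAD-Dp16 sham 4. 5xFAD tofacitinib 2, 5xFAD-Dp16 sham 4 and 5xFAD-Dp16 tofacitinib 1 were the 3 highest libraries both in Adarb1 and in thalamus and habenula markers. The effect of the transgenes on Adarb1 was 0.33 (SE 0.15, adjusted p = 0.428) with all libraries and 0.05 without the 3 (adjusted p = 0.938). In the groups holding none of these libraries, Adarb1 had means of 179.6 ± 19.0 CPM in WT sham (SD, n = 5), 179.8 ± 7.54 in Dp16 sham (n = 3), 179.9 ± 11.1 in 5xFAD sham (n = 4) and 179 ± 8.95 in Dp16 tofacitinib (n = 5).

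Other members followed these libraries as well. Of the 37 members, 16 had their highest and 6 their lowest value in 1 of the 3 libraries. Counted against the range of the other 31, 5 members lay outside it in WT tofacitinib 3 (1 above, 4 below), 15 in 5xFAD tofacitinib 2 (12 above, 3 below) and 17 in 5xFAD-Dp16 sham 4 (13 above, 4 below). Dip2a was at 98.4 and 108 CPM in the last 2 and at most 69.4 CPM elsewhere in the 31, Trpm2 at 43.3 and 49.5 CPM against at most 32.8 CPM, and Pdxk at 242 and 253 CPM against at most 196 CPM. Icosl was low in all 3, at 2.54, 5.27 and 6.20 CPM against 6.60 to 17.2 CPM, and Pfkl at 150, 146 and 114 CPM against 165 to 283 CPM. The spread among animals of a group (SD of log2 CPM, pooled over groups) fell by more than 1.5 times without the 3 libraries for 6 members: Adarb1, Dip2a, Lrrc3, Icosl, Trpm2 and Prmt2. The part of tissue content in these values was not tested.

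**Figure D5:**
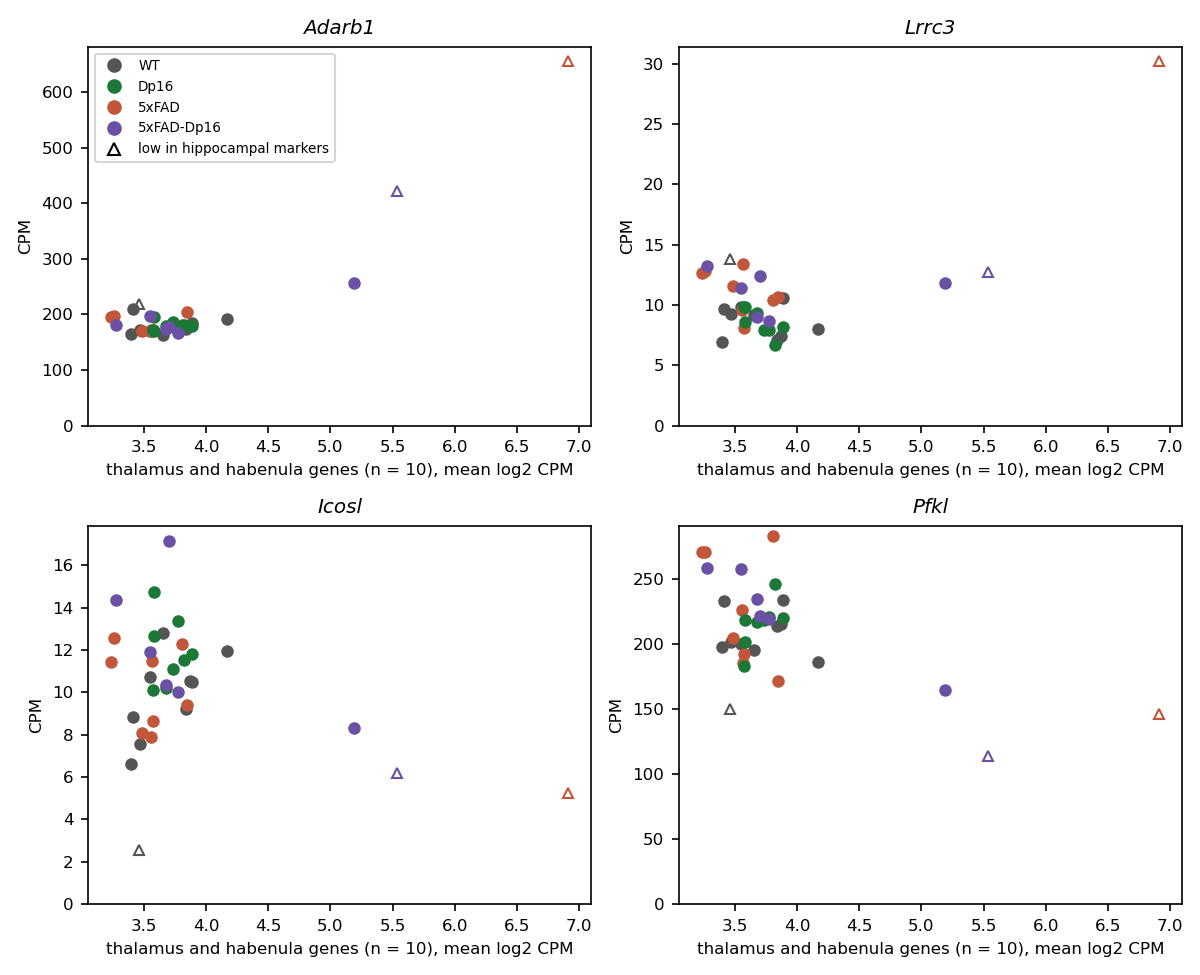
CPM of Adarb1, Lrrc3, Icosl and Pfkl in each of 34 animals against the mean log2 CPM of 10 thalamus and habenula markers; colours give the genotype and open triangles the 3 libraries low in hippocampal markers. Adarb1 reaches 656 CPM in the library at 6.91 on the horizontal axis, while Icosl and Pfkl are low in the 3 triangles.

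The steadiest members were Trappc10, Agpat3 and Sumo3. Their SD of log2 CPM among animals of a group was 0.07, 0.08 and 0.10 without the 3 libraries, against a median of 0.19 over the 37 members and 0.75 for Rsph1, the most variable. Rrp1, the most highly expressed per length, lay between 299.7 and 420.3 CPM over all 34 libraries.

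Tofacitinib was compared with sham over the 4 genotypes. No member passed (0 of 37, against 0% of all genes; edgeR, 3 members with an unadjusted p under 0.05, DESeq2 also 0), and the intervals of all 37 lay below 1.5-fold. The members' median was -0.00 and that of all genes 0.00. The largest differences were those of Slc37a1 and Rrp1b, a paralog of Rrp1. Slc37a1 was at 1.82, 2.02, 3.19, 2.9 and 1.75 CPM with sham and at 2.06, 2.22, 2.74, 2.05 and 2.69 CPM with tofacitinib in WT animals, and at 2.59, 3.31 and 2.35 CPM with sham and 1.7, 2.23, 2.44, 2.06 and 1.71 CPM with tofacitinib in Dp16 animals. It was at 3.31, 3.73, 1.79 and 3.73 CPM with sham and at 1.57, 3.82, 2.9, 1.15 and 3.05 CPM with tofacitinib in 5xFAD animals, and at 4.03, 2.3 and 1.59 CPM and at 2.02, 3.45, 1.9 and 2.65 CPM in 5xFAD-Dp16 animals. The arms overlapped in every genotype, and the difference was -0.21 (SE 0.16, adjusted p = 0.768, edgeR). It was -0.10 without 5xFAD-Dp16 sham 1 and -0.34 without the 3 libraries low in hippocampal markers, and passed in neither.

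Rrp1b was at 4.61, 4.55, 5.83, 5.09 and 5.13 CPM with sham and at 5.22, 5.3, 4.87, 6.26 and 4.23 CPM with tofacitinib in WT animals. In Dp16 animals it was at 4.31, 5.08 and 4.05 CPM with sham and at 7.06, 6.31, 5.4, 5.2 and 6.21 CPM with tofacitinib, which did not overlap. In 5xFAD animals it was at 6.15, 4.71, 4.84 and 4.02 CPM with sham and at 6.32, 9.96, 4.91, 3.76 and 6.32 CPM with tofacitinib, and in 5xFAD-Dp16 animals at 5.14, 6.45 and 8.5 CPM and at 7.43, 6.08, 6.24 and 6.42 CPM. The difference over genotypes was 0.19 (SE 0.10, adjusted p = 0.652, edgeR). Rrp1b overlaps Hsf2bp on the opposite strand over 250 bases.

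Within single genotypes, tofacitinib against sham called none of the 37 members: in WT mice 0 (0% of all genes; edgeR, 1 member unadjusted), in Dp16 mice 0 (0.00571% of all genes; 2 unadjusted), in 5xFAD mice 0 (0% of all genes; 3 unadjusted) and in 5xFAD-Dp16 mice 0 (0% of all genes; 3 unadjusted), and DESeq2 gave 0 in each. Itgb2 differed between the arms by 0.09 in WT mice, -0.32 in Dp16 mice, -0.05 in 5xFAD mice and -0.13 in 5xFAD-Dp16 mice. The interactions of the segment with the transgenes, of the segment with tofacitinib and of the transgenes with tofacitinib each gave 0 of 37 members (0% of all genes in each; edgeR, 1, 1 and 0 members with an unadjusted p under 0.05, DESeq2 0 in each). The member with the largest segment by transgene interaction was Col6a1, at 0.76 (unadjusted p = 0.115), which is the gene high in 5xFAD-Dp16 sham 4. S100b had an interaction of the segment with tofacitinib of -0.42 (unadjusted p = 0.0246, adjusted p = 0.754).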

How the data were processed

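The authors deposited a table of raw counts per gene (whole read counts) with a column for each library, and a table of RPKM values that equalled those counts divided by the library total and a length per gene for 12463 genes checked. The submitters' processing notes name HISAT2 2.1.0 and HTSeq 0.6.1, with bcl2fastq, SAMtools 1.5 and FastQC 0.11.5, and build GRCm38. Libraries were strand-specific, per the labels' protocols; no source used here gives the setting used in counting. Positions are from GENCODE release M21 on GRCm38, which is not the release the authors counted on and held 99.6% of their gene identifiers.

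Groups and sex were taken from the labels. Counts were TMM-scaled, filtered by filterByExpr (17518 genes left) and fitted with edgeR 4.0.16 in R 4.3.3 (quasi-likelihood, robust; 8 group means and sex, all 34 libraries, 25 residual degrees of freedom). Adjusted p-values are edgeR's, over all genes, except where DESeq2 1.42.0 is named; the script was tested on simulated data. CPM are TMM-scaled, and a marker list's level averages log2 CPM (prior count 2) over its genes. Nothing in the labels says that animals of a group are from separate litters, so p-values measure the spread between these animals.

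Per-animal values were given, by rule, for members past the threshold and for the 2 with the largest segment and the 2 with the largest tofacitinib effects (Itgb2, Col6a1, Col6a2, Slc37a1 and Rrp1b); S100b, Sumo3, Trappc10, Sik1, Lrrc3, Adarb1 and the other members with values were chosen after their values were seen. Members and lists were chosen with earlier results of these data known. Alternatives were DESeq2 size factors, DESeq2, no filter, 2 surrogate variables (sva 3.50.0), a block for the replicate number, dropping sex, the compared groups alone, and fits without the 3 libraries low in hippocampal markers, without these and 5xFAD-Dp16 tofacitinib 1 (added after seeing the data) and without each library in turn.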

Additional observations from a re-analysis of the deposited data

Results flagged for a closer look

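Over 13 genes named in the report and 78 groups of 4 or 5 animals, 7 groups held 1 animal far from the others relative to the group's range, where chance gives about 1 in 20 groups. Several of these genes, Adarb1, Lrrc3 and Sumo3 among them, were chosen after their values were seen, so this number cannot be read against that rate. Adarb1 was at 656 CPM in 5xFAD tofacitinib 2 (the others 170 to 205 CPM) and at 256 CPM in 5xFAD-Dp16 tofacitinib 1 (the others 174 to 181 CPM). Lrrc3 was at 30.2 CPM in 5xFAD tofacitinib 2 (the others 8.09 to 13.4 CPM) and at 13.9 CPM in WT tofacitinib 3 (the others 6.9 to 8.01 CPM). These 4 values come from libraries high in thalamus or striatum markers. Itgb2 was at 12 CPM in 5xFAD-Dp16 tofacitinib 1, which is also among these libraries (the others 15.0 to 15.5 CPM). Col6a2 was at 8.06 CPM in 5xFAD tofacitinib 1 (the others 2.97 to 4.12 CPM), and Sumo3 at 106 CPM in Dp16 tofacitinib 2 (the others 116 to 119 CPM).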

How the results depend on the processing

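Itgb2, Col6a1, Col6a2, S100b, Sumo3, Trappc10, Sik1, Rsph1, Lrrc3, Adarb1, Slc37a1 and Rrp1b, the members refitted by name, kept the direction of the effects refitted; the number of members called changed as follows. Without a filter on low counts, the members called were 4 for the segment (S100b, Col6a1, Col6a2 and Sik1), 3 for the transgenes (Itgb2, Lrrc3 and Adarb1), 1 for segment by transgenes, 2 for segment by tofacitinib, 2 for Dp16 against WT, 5 for 5xFAD-Dp16 against 5xFAD and 1 for 5xFAD-Dp16 against Dp16 (all sham), and 1 for tofacitinib in 5xFAD. With tofacitinib, the same fit called Itgb2, Adarb1 and Lrrc3 for 5xFAD against WT, Adarb1 for 5xFAD-Dp16 against 5xFAD and Itgb2 for 5xFAD-Dp16 against Dp16. For the segment, 2 surrogate variables and DESeq2 each gave 2; for the transgenes, DESeq2 gave 2, and 2 were called without the 3 libraries and without these and 5xFAD-Dp16 tofacitinib 1. With the compared groups alone, Dp16 against WT gave 1 (S100b) and 5xFAD against WT 0. Genes called for the segment were 705 without the filter, 519 with surrogate variables, 415 with DESeq2 and 408 without 4 libraries, against 242, and for the transgenes 884 without the filter, against 279.

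Leaving out each library in turn gave 0 to 1 members for the segment, 1 to 2 for the transgenes, 0 to 1 for 5xFAD against WT and 0 to 2 for 5xFAD-Dp16 against 5xFAD, and 0 for Dp16 against WT and 5xFAD-Dp16 against Dp16 (all sham), for tofacitinib overall and in each genotype, and for the 3 interactions. With tofacitinib Itgb2 passed for 5xFAD against WT in 3 of 10 such fits (0.94 to 1.36) and for 5xFAD-Dp16 against Dp16 in 0 of 9 (0.59 to 0.76), and Lrrc3 passed for 5xFAD against WT without 5xFAD tofacitinib 6. Intervals below 1.5-fold numbered 32 to 33 for the segment effect and 26 to 28 for Dp16 against WT. With the replicate number as a block, 2 members were called for the transgenes (Itgb2, and Lrrc3 at 0.47, adjusted p = 0.0337, edgeR) and 0 for 5xFAD against WT; with tofacitinib it called Lrrc3 beside Itgb2 for 5xFAD against WT (adjusted p = 0.0239, edgeR), and it moved no other count of members. Animals of equal number in different groups did not deviate together (median correlation 0.02 over 98 pairs, -0.01 over 405 pairs of unequal number). These correlations cannot show whether such animals shared more than a number. Depth limits the genes of low counts, such as Slc37a1 at 1.15 to 4.03 CPM, most.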
